A study of Homo sapiens with 12 samples.

Results

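Doxycycline (dox) was compared with no dox in cells that had all received the androgen dihydrotestosterone (DHT), across genes grouped by function. Members were the genes with a probe above background on the arrays of either group, taken from the deposited value table of intensities on a log2 scale. They numbered 11716 of the 12122 genes above background in at least 1 group of the study, and of 20046 genes named on the array. Of the members, 10649 were above background in both groups, 561 only on the arrays labelled DHT and 506 only on those labelled DHT with dox. Above background means that the group mean of a probe exceeded 147.5 intensity units, the 95th percentile of 640 probes for odorant receptor, taste receptor, keratin-associated protein and defensin genes, families with little expected expression in cultured epithelial cells.

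The study measured RNA from C4-2B/Rx2dox cells on 12 single-colour bead arrays in 4 groups of 3, described as biological triplicates. C4-2B is a prostate cancer line, and in this derivative dox was meant to switch on the transcription factor RUNX2. All cultures were grown with 10% serum and then held for 48 h without phenol red in 5% charcoal-stripped serum, which is depleted of steroid hormones. The 3 DHT cultures received DHT at a labelled 10 mM, the 3 DHT with dox cultures received the same DHT and dox at a labelled 250 µg/ml for 48 h, and the vehicle was ethanol. Both labelled doses are far above those usual in cell culture, and the unit could not be resolved from the sources used here. Vehicle arrays and dox arrays without DHT are compared only where the dox change is set out with and without DHT. They also entered the fit over all 12 arrays that gave the spread and p-values, the background limit and the choice of probe. The groups carry no arm with dox in cells lacking the inducible gene, so an effect of dox itself and one of the induced factor cannot be told apart. Whether the derivative is a single clone is not given in the sources used here.

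RUNX2 is a runt-domain transcription factor that directs bone-forming cells, and it is studied in prostate cancer because such tumours spread to bone. Androgens such as DHT act through a steroid-bound transcription factor and drive genes such as KLK3, TMPRSS2 and FKBP5 in prostate cells.

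Every array held 47230 probes and ran from 84.1 to 27321.9 intensity units with a median of 137.6. Across probes above the limit, arrays of the same group correlated at 0.9938 to 0.9954 and arrays of the 2 groups at 0.9786 to 0.9813. The third DHT array stood apart for interferon-stimulated genes, and results on that list and on antigen presentation are given with and without it. Precision is limited by having 3 arrays a group, and the p-values measure only the spread between these arrays.

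Markers of the labelled cell type were mostly dim. Of 16 prostate luminal markers, 7 were above background on all 6 arrays and 6 on none, namely KLK2, KLK3, KLK4, FOLH1, STEAP2 and PCA3. Of 14 breast luminal markers, 10 were above background on all 6 arrays and 2, SCGB2A2 and ANKRD30A, on none. The summed intensity of the prostate markers was 5456 to 5814 on DHT arrays and 3694 to 3886 on DHT with dox arrays. That of the breast markers was 47507 to 51495 and 73877 to 76431. Endothelial markers were above background on all 6 arrays for 0 of 8 genes, immune markers for 3 of 10, fibroblast markers for 4 of 12 and basal epithelial markers for 3 of 7. PTPRC, CD3E and PECAM1, markers of white blood cells, T cells and endothelial cells, were above background on 0 arrays. The 3 immune markers above it on all 6 arrays were CD8A, CD14 and CD68. The markers therefore went against the prostate label, and groups are named here by their labels alone. In bulk RNA, fewer cells of a type and less RNA per cell cannot be told apart.

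Between the groups, 4051 genes (34.6% of those compared) passed the test, limma on log2 values with a Benjamini-Hochberg adjusted p under 0.05. Of these, 1726 (14.7%) were higher on DHT with dox arrays and 2325 (19.8%) were lower. Counts in each gene list below are to be read beside these shares. A change of at least 1.5-fold was reached by 278 of the higher genes (2.37% of all) and 467 of the lower (3.99%), 745 in sum (6.36%). At least 2-fold was reached by 60 rises and 114 falls, and at least 4-fold by 9 rises and 5 falls. The 3 values of each group did not overlap for 5364 genes (45.8%). The median log2 change over all members was -0.018 and the median absolute change 0.16, against a median standard error of 0.089.

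Calls were made at every level of expression. Among 3941 genes with a geometric mean intensity under 256, 267 were higher and 446 lower. Among 4534 genes between 256 and 1024, 815 were higher and 1061 lower, and among 789 genes over 4096, 105 were higher and 176 lower. How background was handled is not given in the sources used here. If the intensities still include background light, folds of dim genes are understated. With the median of the background probes (118.5) subtracted, 1798 genes were called with at least 1.5-fold.

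**Figure D1:**
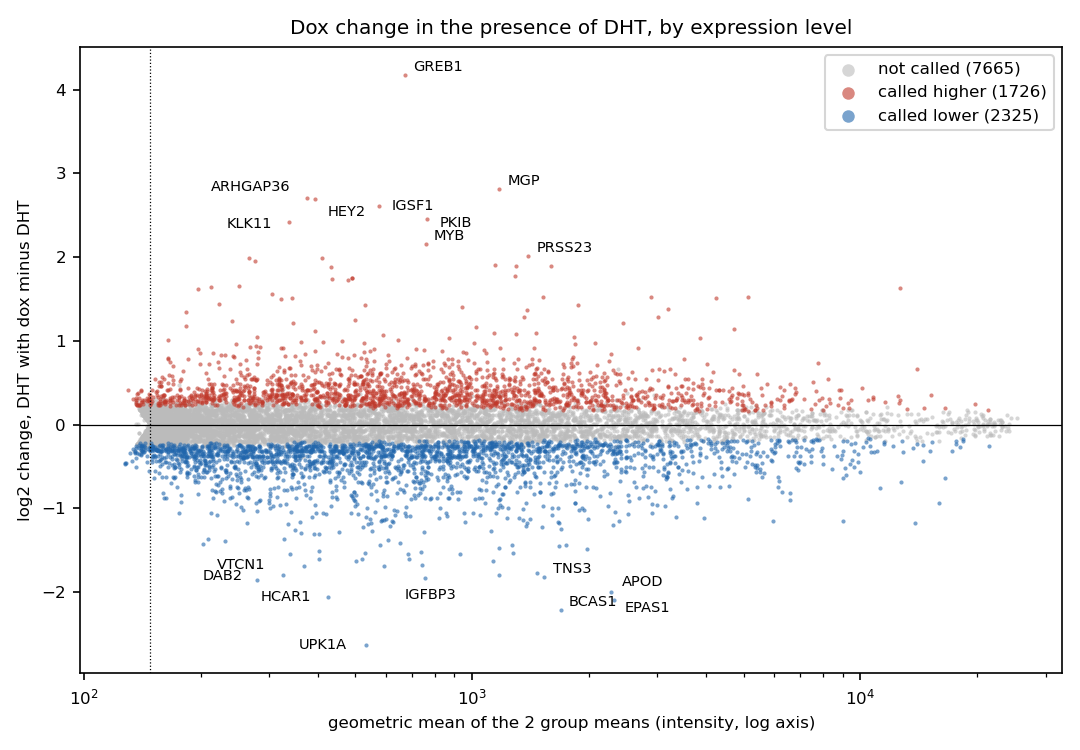
Each point is a gene, placed by the geometric mean of the 2 group means (intensity, log axis) and by its log2 change on DHT with dox arrays against DHT arrays. Red points were called higher (1726), blue points lower (2325) and grey points were not called. The dotted line is the background limit of 147.5, GREB1 lies highest and UPK1A lowest.

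RUNX2 itself was examined on every array. Its brighter probe read 313.0, 273.9 and 270.9 on the DHT arrays and 331.1, 258.6 and 321.9 on the DHT with dox arrays. The groups overlapped and the log2 change was 0.08 ± 0.10 (SE, n = 3 per group, limma adjusted p = 0.578). A second tested RUNX2 probe averaged 160.8 and 158.5. Which part of the RUNX2 transcript the inducible copy carries was not analysed here, so these probes check neither the induction nor the dox label. CBFB, the partner that RUNX factors need to bind DNA, changed by 0.02, and the relatives RUNX1 and RUNX3 by 0.08 and 0.18, none of them called.

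Among 16 measured genes known as RUNX2 targets in bone or invasion, 2 rose, 5 fell and 9 were not called, with a median of -0.008. The rises made 12.5%, near the 14.7% over all genes, and the falls 31.2%, beside 19.8%. The chemokine gene CXCL12 and the survival gene BIRC5, which is also a mitotic gene, were those that rose. SNAI2, a repressor of epithelial genes, fell from 276.8, 320.1 and 320.3 to 148.5, 150.4 and 142.7. The groups were apart, the mean with dox lay at the background limit, and the log2 change was -1.05 ± 0.08 (limma adjusted p = 3e-09). SMAD3, a signal carrier of TGF-beta, fell by 1.05 and SOX9, the cartilage transcription factor, fell by 1.00. The bone matrix genes COL1A1 and IBSP changed by -0.04 each and were not called. The sign of this list's median turned under several settings (0.039 without DHT replicate 2).

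The genes used as checks of androgen action did not move together. FKBP5, a chaperone that androgen induces in prostate cells, read 706.3, 765.6 and 646.8 on DHT arrays and 940.5, 901.7 and 901.5 on DHT with dox arrays. Its groups did not overlap, and it rose by 0.38 ± 0.09 (limma adjusted p = 0.00205). TMPRSS2, a membrane protease whose promoter responds to androgen, fell from 1311.0, 1122.1 and 1332.4 to 461.3, 417.6 and 427.4, a log2 change of -1.52 ± 0.09 (limma adjusted p = 1.23e-11). KLK3, the prostate-specific antigen gene, was above background on 0 of the 6 arrays and has no fold here.

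The gene with the largest rise was GREB1, a chromatin cofactor of the estrogen receptor. It read 159.3, 178.2 and 137.6 on DHT arrays, on 2 of which it was above background, and 2750.7, 2871.5 and 2869.0 on DHT with dox arrays. It was 18.0-fold higher (log2 4.17 ± 0.10, limma adjusted p = 1.26e-17). This value belongs to its brightest probe: 2 other tested probes changed by 0.29 and -0.06 near background, and the mean of its probes above background changed by 1.47.

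MGP, a secreted inhibitor of calcification, read 421.8, 447.8 and 458.3 on DHT arrays and 3233.8, 3080.2 and 2991.0 on DHT with dox arrays, 7.01-fold higher (log2 2.81 ± 0.07, limma adjusted p = 4.29e-17). ARHGAP36, an activator of Hedgehog signalling, read 148.5, 158.8 and 133.6, then 973.2, 1024.2 and 884.5 with dox. HEY2, a repressor of the Notch pathway, rose from 164.7, 150.3 and 148.2 to 915.2, 1072.5 and 1009.7. For all of these the lowest array with dox lay several-fold above the highest without it. IGSF1, a membrane glycoprotein of the immunoglobulin family, was 6.09-fold higher and PKIB, an inhibitor of protein kinase A, 5.50-fold.

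MYB, the transcription factor of blood progenitors and luminal breast cells, read 364.2, 354.2 and 354.0 on DHT arrays. With dox it read 1765.8, 1494.6 and 1560.0, a 4.48-fold rise (log2 2.16 ± 0.08, limma adjusted p = 3.29e-14). The kallikrein gene KLK11 rose by its brightest probe from a DHT mean of 145.3, with 1 array above background, to 781.0, while another tested probe was called in the opposite direction (-0.31, limma adjusted p = 0.0387). The serine protease gene PRSS23 rose 4.02-fold and SGK1, a kinase induced by steroid hormones, 3.97-fold. RAMP3, which modifies the calcitonin receptor-like receptor, also rose, from a DHT mean of 133.9 to 530.5, and was above background on 1 DHT array. The DHT means of ARHGAP36, KLK11 and RAMP3 lay under the limit, so their change was measured against signal at background.

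UPK1A, a tetraspanin of the urothelial surface, fell most among genes whose groups did not overlap. It read 1293.7, 1318.2 and 1338.8 on DHT arrays and 204.9, 253.4 and 184.5 on DHT with dox arrays, 6.20-fold lower (log2 -2.63 ± 0.10, limma adjusted p = 1.67e-14). BCAS1, a gene amplified in breast cancer, read 3540.4, 3302.0 and 4088.6, then 801.5, 799.5 and 747.9 with dox. EPAS1, which encodes the oxygen-regulated factor HIF-2 alpha, read 5206.9, 4480.1 and 4643.2, then 1055.0, 1205.7 and 1102.4. Each fell at least 4-fold, and so did HCAR1, the lactate receptor, at 4.17-fold.

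APOD, a lipid carrier, fell from a mean of 4558 ± 266 (SD, n = 3) to 1140 ± 81.6. DAB2, an adaptor of endocytosis and TGF-beta signalling, read 520.5, 542.3 and 525.2 on DHT arrays and 139.1, 160.6 and 139.7 with dox, where 1 array was above background and the mean lay under the limit. IGFBP3, which binds insulin-like growth factors, fell 3.56-fold, and the focal adhesion gene TNS3 3.52-fold. VTCN1, the T cell inhibitor B7-H4, fell 3.49-fold, the calcium-binding mitochondrial gene EFHD1 3.45-fold, the p53-induced gene TP53INP1 3.41-fold and the epithelial factor GRHL3 3.23-fold.

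**Figure D2:**
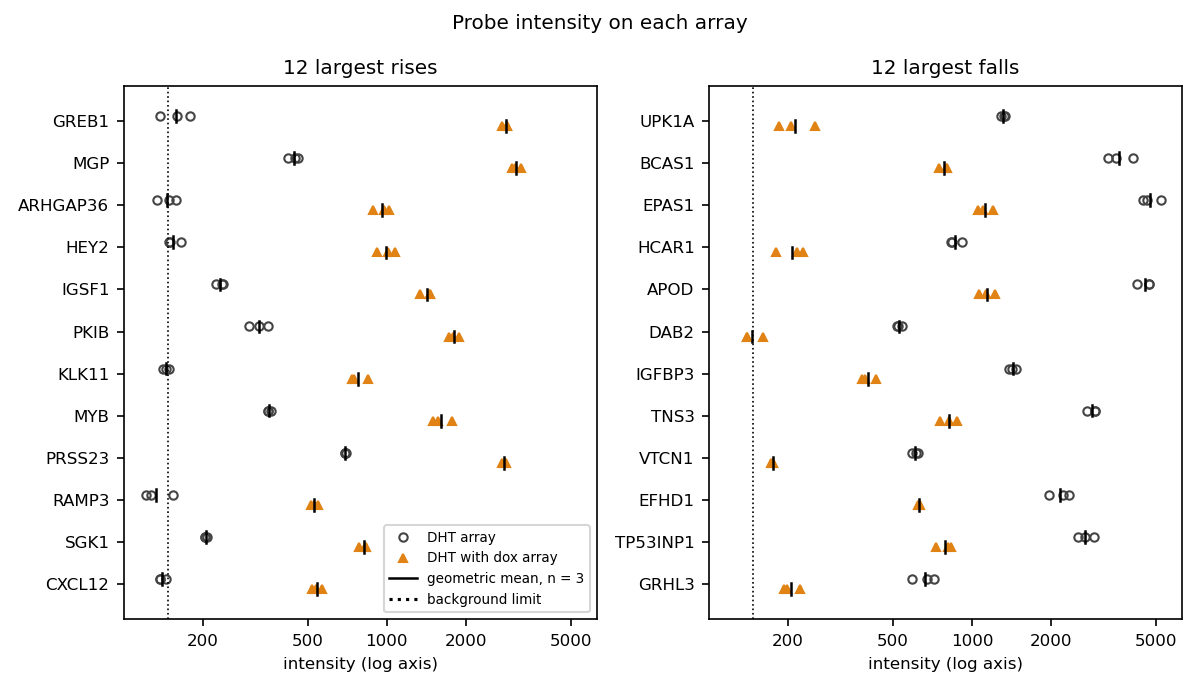
Intensity (log axis) on each of the 6 arrays for the 12 largest rises (left) and 12 largest falls (right) among called genes whose groups did not overlap. Open circles are DHT arrays, triangles DHT with dox arrays, bars the geometric means of 3 arrays and the dotted line the background limit of 147.5. GREB1 moves from near the limit to 2871.5 on its brightest array, and DAB2 drops to near the limit.

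Some genes were read by a probe above background in a single group, so that their fold is a lower bound set by the background limit. CXCL12, the ligand of the receptors CXCR4 and ACKR3, read 137.8, 137.6 and 145.2 on DHT arrays, all at or below the limit, and 568.7, 540.7 and 518.7 with dox. It was at least 3.68-fold higher (limma adjusted p = 3.99e-13). The cadherin gene CDH26 was at least 3.01-fold higher, the scaffold gene PDZK1 at least 2.54-fold, the keratin gene KRT13 at least 2.49-fold and the immediate-early factor EGR3 at least 2.33-fold. On the other side, IL1R1, the interleukin-1 receptor, read 342.0, 406.4 and 371.6 on DHT arrays and 139.5, 141.5 and 145.0 with dox, at least 2.52-fold lower. HOPX, a homeodomain gene, and LINC00930, a long noncoding RNA gene, were each at least 2.26-fold lower by their brightest probes. A second HOPX probe was above background in both groups (161.2 and 163.5) and changed by 0.02, which was not called. The secreted protein gene FSTL5 was at least 1.71-fold lower and LOC284379 at least 1.65-fold.

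Genes known as targets of the estrogen receptor rose together. Of 28 measured genes of this list, which was put together with earlier results of these data known, 27 rose, 0 fell and 1 was not called, beside 14.7% higher and 19.8% lower over all genes. Their median log2 change was 1.355 against -0.018 over all genes, and 24 changed at least 1.5-fold. The exception was the potassium channel gene KCNK15, at -0.10. Of the 28, 24 were above background in both groups. Genes above it only with dox, such as PGR and CXCL12, were measured through the group where they are high. Of all 506 such genes, 92 were called higher and 0 lower, so their rises add no support. Besides GREB1, PRSS23 and CXCL12, the secreted trefoil peptide gene TFF1 read 7491.6, 6293.0 and 7824.0 on DHT arrays and 21232.7, 22780.4 and 22725.4 with dox. It rose 3.10-fold at a level near the top of the array's range. PGR, the progesterone receptor gene, was above background on 0 DHT arrays (113.4 to 116.6) and on 3 with dox (261.7 to 320.7), at least 1.97-fold higher.

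The estrogen receptor gene ESR1 went the other way. It read 3408.0, 3527.5 and 3502.3 on DHT arrays and 2495.4, 2690.1 and 2157.4 with dox, and fell by 0.51 ± 0.09 (limma adjusted p = 9.93e-05). Of 22 genes known to be lowered by estrogen in breast cells, 18 fell, 1 rose and 3 were not called, with a median of -1.054. In this list 20 genes were above background in both groups. BCAS1, IGFBP3 and TP53INP1 led the falls, and KRT13 was the gene that rose. The summed breast luminal markers moved with these lists, as given above. Of 12 measured markers 7 rose and 4 fell, the falls being ESR1, GATA3 (-0.22), MLPH (-0.45) and TBX3 (-0.38). TFF1 and XBP1, which are also on the estrogen target list, had the brightest rises. The part of the markers in the result was not tested.

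Nuclear receptors, their coregulators and lineage factors mostly fell. Among 28 measured, 15 fell, 4 rose and 9 were not called, with a median of -0.243. ELF3, an epithelial ETS factor, read 1915.7, 1634.6 and 1660.8 on DHT arrays and 717.0, 785.4 and 654.6 with dox, a fall of 1.27 on the log2 scale. ELF5, the ETS factor of milk-secreting cells, fell by 0.86. RARA, a retinoic acid receptor gene that estrogen induces in breast cells, rose from 993.5, 963.4 and 1045.0 to 2092.6, 2117.0 and 2204.8, and the estrogen receptor corepressor NRIP1 rose by 0.58.

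Genes of steroid and retinoid metabolism fell in 11 of 17 cases, with 2 rises, 4 not called and a median of -0.289. ALDH1A3, which makes retinoic acid, read 1982.8, 2011.6 and 1979.0 on DHT arrays and 694.9, 669.2 and 570.6 with dox, 3.10-fold lower (log2 -1.63 ± 0.08, limma adjusted p = 2.31e-12). DHRS3, a retinal reductase, fell by 1.17 and CYP1A1, which oxidises estrogens and aromatic compounds, by 1.06. UGT2B17, which inactivates DHT by glucuronidation, was above background on 0 DHT arrays (116.6, 127.9 and 134.5) and on 3 with dox (176.3, 185.5 and 186.6), at least 1.24-fold higher.

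Genes induced by androgen in prostate cells did not share a direction. Of 28 on that list, 14 were measured, 3 rose, 7 fell and 4 were not called, with a median of -0.246. ALDH1A3 and TMPRSS2 fell as given, and TSC22D3, a steroid-induced leucine zipper gene, fell from 2977.8, 3443.9 and 3518.3 to 1215.7, 1197.4 and 1130.6. SGK1 rose from 204.4, 207.1 and 204.7 to 836.3, 783.2 and 829.5, and the kinetochore gene CENPN by 0.50. SLC45A3, a prostate transporter gene, changed by -0.10 and was not called. Of 6 measured genes that androgen represses, UGT2B17 and BCL2 rose, the chemokine receptor gene ACKR3 fell by 0.77, and 3 were not called. In this list 4 genes were above background in both groups. BCL2 rose from a mean of 141.0, under the background limit with 1 DHT array above it, to 180.5.

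Genes of the cell division cycle rose with small, even changes. Of 41 mitosis genes, 37 rose, 0 fell and 4 were not called, with a median of 0.375. Groups did not overlap for 33 of the 41, beside 45.8% of all genes. Of 35 DNA replication genes, 27 rose, 0 fell and 8 were not called (median 0.397). Of 24 genes of nucleotide supply, 17 rose and 7 were not called (median 0.354), and of 24 DNA repair genes 12 rose and 12 were not called (median 0.289). The share of mitosis genes called higher was 90.2%, beside 14.7% over all genes. The count of mitosis genes that rose ranged down to 28 when DHT with dox replicate 2 was left out.

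AURKB, the kinase of the chromosomal passenger complex, read 707.8, 673.4 and 730.6 on DHT arrays and 1045.8, 1340.0 and 1204.8 with dox (log2 0.76 ± 0.09, limma adjusted p = 1.12e-06). PTTG1, the securin gene, read 3260.9, 2853.4 and 3233.8, then 5269.2, 5150.8 and 5084.6. NUF2, a kinetochore subunit, read 310.2, 306.8 and 316.7, then 528.5, 480.6 and 515.2. None of these groups overlapped, and each gene was 1.63-fold to 1.69-fold higher. MYBL2, an activator of mitotic genes, changed by 0.03 and PLK1, a mitotic kinase, by 0.32, and neither was called.

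Promoters of the 3 mitosis genes with the largest rise are shown with that of UPK1A, which fell most, because mitotic genes are known to share promoter elements. Each runs from 250 bases before the start of transcription to 50 bases from it (RefSeq, GRCh38.p14), and is written 5′ to 3′ on the gene's strand. Capitals mark matches to 5 motifs searched on both strands: RUNX (TGTGGT), the palindromic estrogen response element, the palindromic androgen response element, the cell cycle homology region CHR (TTTGAA) and CCAAT. GREB1 and MGP are named only.
AURKB (chr17:8210176-8210475, minus strand): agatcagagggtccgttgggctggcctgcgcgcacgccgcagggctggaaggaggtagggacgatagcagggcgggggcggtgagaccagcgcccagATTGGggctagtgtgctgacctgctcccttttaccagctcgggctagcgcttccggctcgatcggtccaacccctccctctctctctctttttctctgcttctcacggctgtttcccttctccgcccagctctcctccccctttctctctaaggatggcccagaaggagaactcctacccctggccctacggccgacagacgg
PTTG1 (chr5:160421605-160421904, plus strand): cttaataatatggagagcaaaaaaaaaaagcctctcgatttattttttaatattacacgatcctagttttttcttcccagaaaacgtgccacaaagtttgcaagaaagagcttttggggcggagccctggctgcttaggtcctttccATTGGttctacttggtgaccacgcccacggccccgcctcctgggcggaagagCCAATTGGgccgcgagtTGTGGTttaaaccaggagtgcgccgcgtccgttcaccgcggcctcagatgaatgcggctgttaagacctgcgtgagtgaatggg
NUF2 (chr1:163321704-163322003, plus strand): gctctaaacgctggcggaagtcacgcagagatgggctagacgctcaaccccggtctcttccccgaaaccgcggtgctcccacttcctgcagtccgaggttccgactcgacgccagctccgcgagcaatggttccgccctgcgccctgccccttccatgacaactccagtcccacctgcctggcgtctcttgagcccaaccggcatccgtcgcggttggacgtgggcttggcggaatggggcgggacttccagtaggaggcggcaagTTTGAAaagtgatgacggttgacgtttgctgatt
UPK1A (chr19:35666267-35666566, plus strand): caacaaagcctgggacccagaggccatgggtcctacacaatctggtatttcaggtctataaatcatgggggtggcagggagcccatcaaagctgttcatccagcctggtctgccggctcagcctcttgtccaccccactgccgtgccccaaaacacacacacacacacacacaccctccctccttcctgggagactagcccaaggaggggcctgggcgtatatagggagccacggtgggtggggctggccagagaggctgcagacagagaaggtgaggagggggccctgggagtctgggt
AURKB held CCAAT on its opposite strand 153 bases before the start. PTTG1 held CCAAT matches 103, 51 and 48 bases before the start, the last 2 of which overlap, and a RUNX match 34 bases before it. NUF2 held a CHR match 16 bases after the start, and the UPK1A window held no match.

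Over the mitosis list, 35 of 41 members had a promoter in the table. CHR letters stood in 25 of these (71.4%), beside 9.80% of the promoters of 9397 matched members and 15.4% of all 27305 promoters. CCAAT stood in 27 (77.1%), beside 37.1% and 35.7%. The RUNX letters stood in 3 (8.57%), beside 9.18% and 13.1%. The estrogen element stood in 0 of the 35, beside 0.0106% of the matched members and 0.0659% of all promoters. For the androgen element these were 0, 0.202% and 0.388%. Both elements are so rare that their absence from 35 promoters says nothing about this list. These matches describe letters in a window and show no binding.

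The regulators of entry into the cycle were split. Among 24 measured, 10 rose, 4 fell and 10 were not called. E2F7, an atypical E2F repressor, CDC25A, a phosphatase that activates cyclin kinases, and SKP2, which targets p27 for destruction, rose by 0.59, 0.57 and 0.50. A dimmer SKP2 probe changed by 0.03 and was not called. CDK6, a kinase of G1, fell from 968.0, 1197.9 and 1013.6 to 383.7, 310.3 and 296.3, a log2 change of -1.69 ± 0.10 (limma adjusted p = 1.98e-11). CDKN2B, an inhibitor of CDK4 and CDK6, fell with it, from 1193.5, 1201.4 and 1116.1 to 437.4, 387.7 and 373.2. The quiescence cyclin gene CCNG2 fell by 1.14. The cyclin kinase inhibitor gene CDKN1A changed by 0.09 and was not called.

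Among replication genes, GINS3, a subunit of the replicative helicase, rose by 0.74, and MCM10 and TIPIN by 0.65 each. MTHFD2, a mitochondrial folate enzyme, rose by 0.73, CTPS1, which makes CTP, by 0.65 and the purine enzyme gene PFAS by 0.64. In DNA repair, XRCC3, CHEK2 and RAD54L rose by 0.51 to 0.52. Of 21 chromatin regulators of S phase 10 rose and 1, the histone demethylase gene KDM5B, fell (-0.61). Among 17 histone genes 3 rose and 6 fell, H4C8 at -0.93 and H4C3 at 0.55, but histone genes have near-identical copies and these probes may not tell them apart.

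Transcription factors of the MYC and MYB families moved apart. MYC read 681.0, 668.8 and 696.7 on DHT arrays and 1577.2, 1565.5 and 1470.8 with dox, 2.25-fold higher (log2 1.17 ± 0.08, limma adjusted p = 1.06e-10). MYBL1, a relative of MYB, rose 2.83-fold. MXD4, which opposes MYC at its sites, fell from 1665.6, 1658.9 and 1697.7 to 814.1, 867.8 and 861.5, and MYCN fell by 0.65. A dimmer MYCN probe changed by -0.27 and was not called. In all, 5 of 11 rose and 3 fell.

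Genes that build ribosomes rose alongside. Of 35, 27 rose, 0 fell and 8 were not called, with a median of 0.403. LYAR, a nucleolar growth regulator, read 750.4, 865.5 and 960.9 on DHT arrays and 1469.7, 1643.0 and 1743.1 with dox (log2 0.92 ± 0.09, limma adjusted p = 1.53e-07). NOP16, a nucleolar protein gene, rose by 0.89 and NOP56, a core protein of box C/D small nucleolar particles, by 0.84. Of 18 translation factors 9 rose and 0 fell, among them EIF1AX (0.61) and the ribosome recycling factor ABCE1 (0.54). Of 18 aminoacyl tRNA synthetases 8 rose and 1, QARS1, fell, and the rises numbered 4 without DHT replicate 2 and 5 without DHT with dox replicate 1.

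The supply of building blocks rose at a few steps. SLC7A5, the light chain of the large neutral amino acid transporter, read 3114.6, 2892.6 and 3014.3 on DHT arrays and 9122.9, 8695.1 and 8298.1 with dox, 2.89-fold higher (log2 1.53 ± 0.07, limma adjusted p = 3.06e-13). Its heavy chain partner SLC3A2 rose 2.07-fold, from 1257.1, 1222.4 and 1327.1 to 2545.5, 2695.0 and 2619.6. Of 25 amino acid supply genes 7 rose, 3 fell and 15 were not called, and ATF4 (-0.05), the stress factor that drives many of them, was not called. In polyamine metabolism 4 of 11 measured genes rose, 1 fell and 6 were not called, with a median of 0.093. The synthetic genes ODC1, SRM and AMD1 rose by 0.69, 0.66 and 0.63. SAT1, which starts polyamine breakdown, fell from 3384.0, 3320.4 and 3701.4 to 1743.5, 1832.8 and 1964.7.

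Of 32 genes of the mitochondrial ribosome, 17 rose and 1 fell (median 0.211), led by MRPL4 at 0.62 and MRPL12 at 0.57. Of 21 import and folding genes 10 rose and 2 fell, with TIMM10 at 0.60 and TOMM40 at 0.44. Of 24 subunits of the respiratory chain, 3 rose, 1 fell and 20 were not called (median 0.029). The 12.5% that rose lay near the 14.7% over all genes, and 1 rose without DHT with dox replicate 1.

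In protein folding, 13 of 25 proteasome and chaperone genes rose and 0 fell. HSPB8, a small heat shock protein gene that estrogen induces in breast cells, rose from 624.5, 585.0 and 527.4 to 1324.8, 1654.2 and 1626.2, 2.64-fold. Of 18 endoplasmic reticulum genes 8 rose and 2 fell. XBP1, the factor of the unfolded protein response and also an estrogen target, rose from 10597.6, 10520.2 and 12122.6 to 17370.5, 17952.8 and 17598.4. HSPA5, the chief chaperone of that response, changed by -0.07 and was not called.

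Lysosome and autophagy genes mostly fell. Of 25, 16 fell, 3 rose and 6 were not called, with a median of -0.337. CTSH, a lysosomal protease, fell from 2523.8, 3025.7 and 2553.0 to 1429.5, 1297.3 and 1351.0, a log2 change of -0.99 ± 0.09 (limma adjusted p = 2.03e-08). BNIP3L, a receptor of mitophagy, fell by 0.64 and GABARAPL1, an autophagosome protein, by 0.61. A dimmer BNIP3L probe changed by -0.12 and was not called. Both large rises went against the list. GLA, alpha-galactosidase, rose from 2484.1, 2537.2 and 2523.8 to 7130.9, 7202.7 and 7160.1, and CTSD, cathepsin D and a known estrogen target, from 2048.0, 1861.1 and 2032.3 to 5170.6, 5319.9 and 5014.9.

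Genes of the TGF-beta and BMP pathway fell without an exception among those called. Of 26, 17 fell, 0 rose and 9 were not called, with a median of -0.439, beside 19.8% lower over all genes. TGFB3, a ligand, read 965.9, 876.7 and 943.6 on DHT arrays and 458.1, 408.7 and 345.8 with dox (log2 -1.21 ± 0.09, limma adjusted p = 1.77e-09). ID1, a target gene of BMP, read 3628.8, 3416.0 and 3388.0, then 1621.3, 1384.2 and 1552.1. BAMBI, a decoy receptor that opposes the pathway, read 13226.8, 13679.4 and 13498.5, then 5974.3, 6349.7 and 5880.4. The called members thus held a ligand, a target and an inhibitor. The signal carriers SMAD1 and SMAD4 changed by -0.15 each and were not called, nor was SMAD2.

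Other signalling lists were mixed. In the Notch pathway 4 of 19 rose and 4 fell, 21.1% each way, near the 14.7% and 19.8% over all genes. HEY2 rose 6.46-fold, whereas its relatives HES1 and HEY1, also Notch target genes, fell. HES1 fell from 805.3, 770.6 and 838.3 to 353.1, 337.6 and 414.0, and HEY1 was above background on 0 arrays with dox, at least 1.26-fold lower. The rises numbered 2 without DHT replicate 1, DHT replicate 2 or DHT with dox replicate 3, and the receptors NOTCH1 (0.14), NOTCH2 (-0.21) and NOTCH3 (-0.14) were not called.

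Among 11 ERBB genes 3 rose and 3 fell. ERBB2, the HER2 receptor gene, fell from 1934.4, 2138.3 and 2175.8 to 878.0, 1018.4 and 876.2, 2.26-fold, with its chromosomal neighbour GRB7 (-0.88) and its partner ERBB3 (-0.85), of which 2 dimmer probes changed by -0.22 and 0.02 and were not called. The ligand gene TGFA rose by 0.88, and EGFR changed by -0.06 and was not called. In the Wnt pathway 4 of 23 rose (17.4%, near the 14.7% over all genes), and 2 rose without DHT replicate 1, DHT replicate 2 or DHT with dox replicate 3. In that pathway 8 fell (34.8%, beside 19.8%), led by the corepressors TLE1 (-0.76) and TLE2 (-0.65).

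The feedback genes of MAP kinase split 8 higher to 9 lower of 24. SPRY1, an inhibitor of growth factor signalling, fell from 666.8, 755.6 and 673.9 to 228.5, 187.3 and 278.1, 3.06-fold. FOS was above background on 0 DHT arrays and on 3 with dox, at least 1.47-fold higher, and the phosphatase gene DUSP5 rose by 0.68. In the insulin-like growth factor axis 6 of 27 rose and 9 fell. IRS1, the receptor's docking protein, rose from 1467.1, 1362.6 and 1282.3 to 2441.4, 2415.8 and 2364.9, and the kinase gene SGK3 rose by 0.96. IGFBP3 fell from 1386.1, 1475.2 and 1423.3 to 431.2, 381.8 and 393.4. The falls in this axis numbered 5 without DHT replicate 1.

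Of 32 interferon-stimulated genes, 20 fell, 2 rose and 10 were not called, with a median of -0.501, and the size of the fall rested in part on the third DHT array. The mean log2 level of the list, relative to each gene's mean over the 6 arrays, was 0.04, -0.03 and 0.61 on the DHT arrays and -0.22, -0.15 and -0.24 on the DHT with dox arrays. In 27 of the 32 genes the third DHT array was the highest of the 6. Without it, 15 fell, 2 rose and the median was -0.252.

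IFIT1, which binds viral RNA, read 435.4, 484.6 and 1775.5 on DHT arrays and 284.2, 417.5 and 266.7 with dox. Its groups did not overlap, and it fell by 1.19 ± 0.32 (limma adjusted p = 0.00569), or by 0.54 without the third DHT array (limma adjusted p = 0.0107). IRF9, the DNA-binding part of the interferon-activated complex, read 1786.1, 1923.9 and 3979.6, then 1091.8, 1240.1 and 899.1. It fell by 1.16, and by 0.80 without that array. PARP9, a partner of interferon signalling, read 726.8, 724.3 and 1428.6, then 415.1, 434.3 and 373.8, and fell by 1.16, or 0.83 without it. HERC5, the ligase for the interferon-induced modifier ISG15, rose against the list, from 349.3, 347.5 and 542.8 to 769.5, 791.3 and 707.6, a log2 change of 0.90, or 1.12 without that array. IFIT1 lost its call with a robust prior variance.

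**Figure D3:**
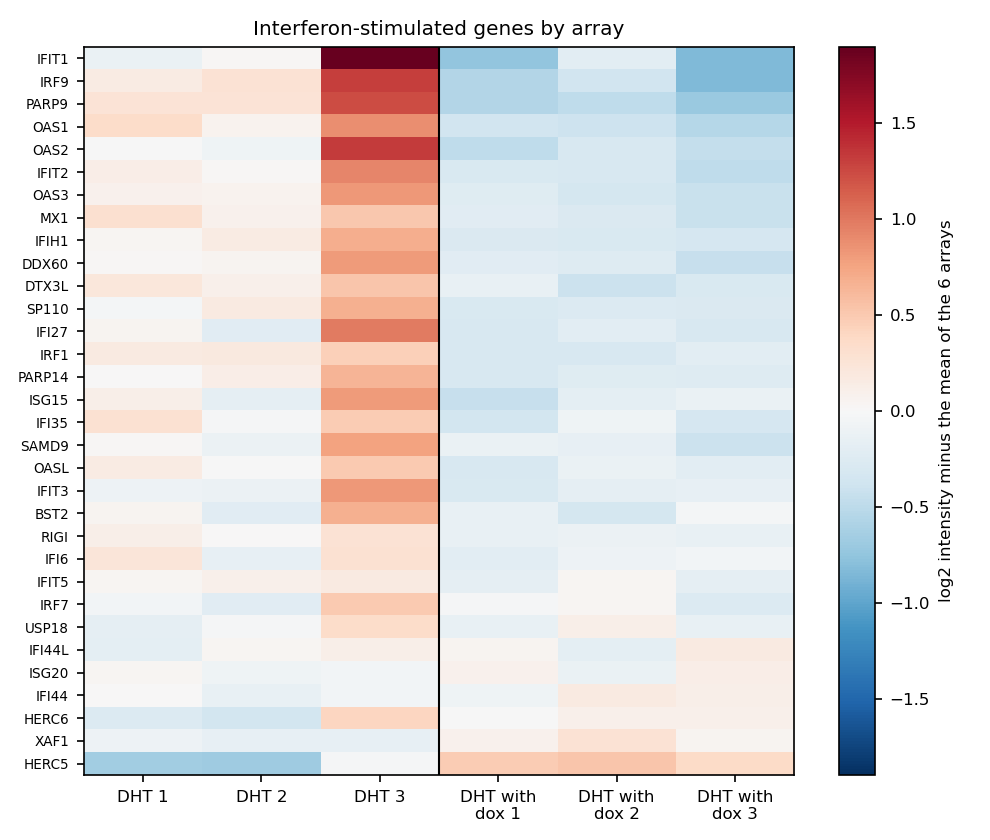
Log2 intensity of 32 interferon-stimulated genes on each of the 6 arrays, minus the gene's mean over the 6 arrays, with genes ordered by their change (largest fall at the top). Red is above the mean and blue below it, and the line parts DHT from DHT with dox arrays. The third DHT array is the reddest column, with a list mean of 0.61.

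In antigen presentation 7 of 16 fell and 1 rose. VTCN1 fell most, from 589.8, 622.5 and 614.5 to 172.4, 175.6 and 176.0, and the peptide transporter gene TAP1 fell by 0.65. The HLA genes HLA-B and HLA-F changed by -0.12 and -0.05 and were not called. Among 12 NF-kappaB targets 4 fell and 1 rose: the inhibitor gene NFKBIA fell by 0.58 and the death receptor gene TNFRSF21 by 0.81. Without the third DHT array, 5 antigen presentation genes fell and 1 rose, TAP1 fell by 0.54, and 3 NF-kappaB targets fell. Among 10 immune markers, CD8A, CD14 and CD68 were above background on all 6 arrays. CD68, a lysosomal gene of macrophages, read 458.3, 378.0 and 367.0 on DHT arrays and 623.7, 525.0 and 587.9 with dox (log2 0.53 ± 0.16, limma adjusted p = 0.0132). It lost its call without DHT replicate 3 (0.47, limma adjusted p = 0.0563), without DHT with dox replicate 1 and with a robust prior. The part of these markers in the result was not tested.

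Cell death genes were split. In the BCL2 family 8 of 17 fell and 5 rose. BCL2L1, which encodes the survival protein BCL-xL, fell from 3710.1, 3446.5 and 3802.7 to 2241.7, 1909.9 and 1808.7 (log2 -0.88 ± 0.08, limma adjusted p = 1.78e-08), and MCL1, another survival gene, fell by 0.57 by its brightest probe, whereas a second probe changed by 0.05 and was not called. Among death-promoting members, BIK fell by 0.64, while BOK rose by 0.75 and PMAIP1 rose from a mean of 141.2, under the background limit, to 242.0. Of 24 p53 targets 8 rose (33.3%, beside 14.7% over all genes), 5 fell (20.8%, near the 19.8% over all genes) and 11 were not called. TP53INP1 fell from 2522.8, 2897.7 and 2695.0 to 835.8, 813.5 and 732.0, GADD45A and AEN rose by 0.66 and 0.62, and MDM2 changed by 0.02 and was not called.

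Genes of the epithelial surface fell in part. Of 28 junction genes 11 fell, 1 rose and 16 were not called, with a median of -0.208. The tight junction gene CLDN9 fell from 1492.8, 1533.8 and 1466.1 to 769.1, 795.7 and 777.3, and CGN fell by 0.72 on the log2 scale. The adhesion gene CDH1 (-0.15) and EPCAM (-0.03) were not called. Of 20 integrin, laminin and adhesion genes 10 fell and 2 rose, led by DAB2, TNS3 and ITGAV (-0.62). Of 7 measured genes of mesenchymal transition, SNAI2 and TGFBI (-0.89) fell, the hyaluronan receptor gene CD44 rose by 0.85, and VIM changed by 0.28 and was not called.

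Of 5 measured uroplakins 4 fell. Besides UPK1A, UPK2 read 2100.2, 1901.2 and 2229.5 on DHT arrays and 721.1, 757.2 and 823.8 with dox, 2.70-fold lower (limma adjusted p = 7.52e-12). UPK3B read 1314.7, 2379.9 and 1176.2, with the second DHT array far above the others, and 562.9, 528.6 and 502.5 with dox, and UPK3A was above background on 0 arrays with dox, at least 1.61-fold lower. UPK1B changed by 0.06 and was not called. AGR3, a disulfide isomerase of luminal cells, rose from 259.2, 254.2 and 287.6 to 886.5, 905.9 and 900.3, and TFF3 rose 2.44-fold. Over the whole list of uroplakins, mucins and secreted luminal genes, 7 of 14 fell and 3 rose.

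Among keratins 4 of 11 rose and 3 fell. KRT13, a keratin of stratified epithelium, was at least 2.49-fold higher as given above, KRT16 rose by 0.85, KRT80 fell from 14592.2, 15573.4 and 13642.6 to 9556.8, 8132.2 and 8194.9, and the luminal keratin gene KRT8 (0.07) was not called. A dimmer KRT16 probe changed by 0.15 and was not called. Of 18 secreted proteases and inhibitors 5 rose and 8 fell. SERPINA3, an inhibitor of chymotrypsin, rose from 321.6, 312.9 and 331.5 to 910.0, 793.6 and 903.9. PRSS8, a membrane protease that activates sodium channels, fell by 0.76.

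In the chemokine and G protein receptor list 7 of 24 rose and 10 fell. CXCL12 rose while its receptors fell: CXCR4 read 397.5, 367.9 and 382.2 on DHT arrays and 215.1, 201.7 and 187.4 with dox, and ACKR3 read 4297.0, 4247.9 and 4099.2, then 2630.7, 2334.8 and 2481.2. CALCR, the calcitonin receptor gene, rose 2.85-fold. Of 29 transporters and channels 9 rose and 9 fell, among them the amino acid transporter gene SLC6A14 (1.12) and the scaffold NHERF1 (0.74) upward, and the ATP-gated channel gene P2RX2 (-1.44) and the exporter gene ABCC3 (-1.24) downward. A dimmer P2RX2 probe changed by -0.17 and was not called.

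Among 30 hypoxia and glycolysis genes 9 rose and 10 fell. EPAS1 fell, and its relative HIF1A rose, from 629.4, 780.6 and 651.8 to 960.5, 1052.7 and 872.3 (log2 0.49 ± 0.09, limma adjusted p = 0.000244). CA2 and CA12, carbonic anhydrases of which CA12 is an estrogen target, rose by 1.14 and 0.79. NDRG1 and HK2, genes that low oxygen induces, fell by 1.13 and 0.99. In cholesterol and fatty acid synthesis 5 of 21 rose and 8 fell, with ELOVL5 at 0.76 and the regulator gene SREBF1 at -0.61. Leaving out replicate 2 of either group gave 2 rises, and leaving out replicate 3 of either gave 3. Other SREBF1 probes changed by -0.45, which was called, and by 0.01 near background, which was not.

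Of 13 core clock genes 2 rose and 2 fell, 15.4% each way beside 14.7% and 19.8% over all genes, with CRY2 at -0.73 and DBP at -0.59. The number that rose was 0 when DHT replicate 2 or DHT with dox replicate 1 was left out. It was 1 when DHT replicate 1, DHT replicate 3 or DHT with dox replicate 2 was. Of 13 genes often used as internal references 2 rose and 2 fell: HPRT1 by 0.35, TUBB by 0.30, B2M by -0.54 and SDHA by -0.26, the last of which lost its call with the mean of its probes. A second B2M probe changed by -0.15 and a second HPRT1 probe by 0.19, neither called. GAPDH (-0.12) and ACTB (-0.02) were not called. Of 3 measured neuroendocrine genes, ENO2 and STMN1 rose by 0.45 and 0.43 and UCHL1 changed by 0.07. Other STMN1 probes changed by 0.32, which was called, and by -0.11 and 0.13 near background, neither called.

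**Figure D4:**
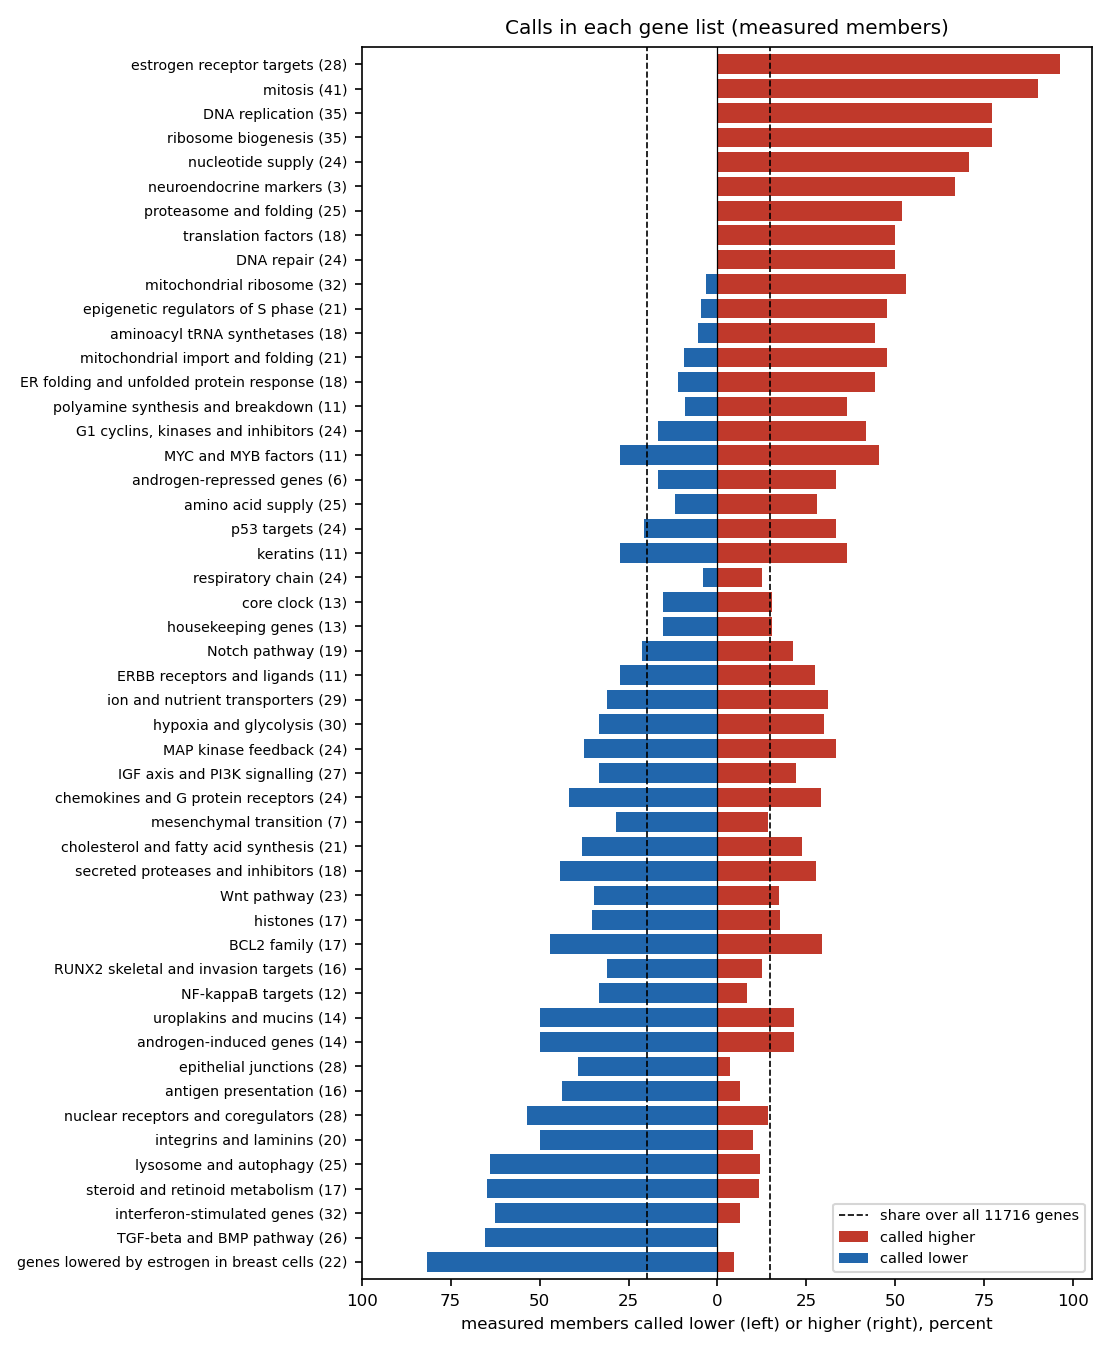
Percent of the measured members of each of 50 gene lists (number in brackets) called higher (red, right) or lower (blue, left) on DHT with dox arrays. Dashed lines are the shares over all 11716 genes, 14.7% higher and 19.8% lower. Estrogen receptor targets lie at the top and genes lowered by estrogen at the foot.

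Dox was also compared with vehicle without DHT, on 6 other arrays, so the difference between both dox changes could be tested in the same fit. It was called for 35 of the 11716 genes (0.299%), and 1194 genes (10.2%) had an unadjusted p under 0.05. Of the 35, 19 were more negative with DHT and 16 more positive, and 15 had opposite signs. GREB1 rose by 4.17 with DHT and by 3.96 without it (difference 0.21, limma adjusted p = 0.641), and UPK1A changed by -2.63 and -2.59. A p that misses the threshold does not show that these changes were equal.

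CLDN1, a tight junction claudin, fell by 0.87 with DHT, from 284.0, 285.5 and 298.8 to 172.2, 158.7 and 146.1, and changed by -0.10 without it. The difference was -0.77 ± 0.12 (SE, limma adjusted p = 0.0124). EPAS1 fell by 2.09 with DHT and 1.37 without it, a difference of -0.72 ± 0.12, and CXCR4 by 0.93 and 0.22, a difference of -0.71 ± 0.12 (both limma adjusted p = 0.0124). UPK3A, above background on 0 arrays with both agents, was at least 1.61-fold lower with DHT, so its difference was measured against signal at background. PLEKHS1, a pleckstrin domain gene, fell by 1.51 and 0.82, and VTCN1 by 1.80 and 1.13. The differences for EPAS1, CXCR4 and the phosphatase gene DUSP19 were called under all 21 alternatives.

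Of the genes more positive with DHT, RNA28SN5, which names a ribosomal RNA, read 639.5, 575.9 and 816.2 on DHT arrays and 1190.7, 1089.0 and 1201.4 with dox. It rose by 0.79 with DHT and changed by -0.36 without it, a difference of 1.15 ± 0.24 (limma adjusted p = 0.0371), which was not called under 13 of the 21 alternatives. Such a probe reads RNA from many gene copies. The pseudogene BMS1P1 changed by 0.49 and -0.40, the centrosomal gene CEP19 by 0.47 and -0.37, DUSP19 by 0.35 and -0.48, and YRDC, which modifies transfer RNA, by 0.66 and -0.14. The rise with DHT lost its call for CEP19 with the mean of its probes and for DUSP19 without DHT replicate 2. ZMAT3, a p53 target, changed by 0.33 and -0.43. A pair of other probes changed by -0.26 and -0.43 with DHT, and its own call was lost when replicate 2 or replicate 3 of either group was left out, with a robust prior, and with the mean of its probes.

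All 19 genes with a more negative dox change under DHT had a higher mean on DHT than on vehicle arrays. All 16 with a more positive change had a lower one, but some of these changes were not called, such as ACKR3 (-0.03, limma adjusted p = 0.883). These comparisons share the DHT and vehicle arrays, and the difference subtracts the change from vehicle to DHT. Picking genes by the difference therefore favours these opposite signs, and no conclusion is drawn from them. CLDN1 changed by 0.85 between DHT and vehicle arrays, EPAS1 by 1.18 and RNA28SN5 by -1.08.

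**Figure D5:**
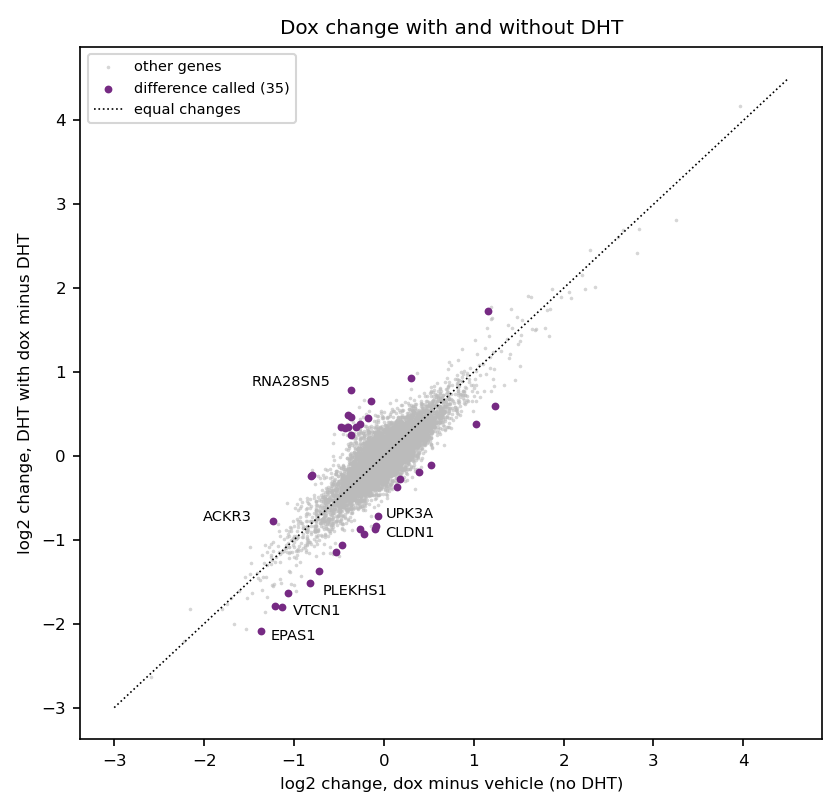
Log2 dox change of each gene without DHT (dox against vehicle, horizontal) and with DHT (DHT with dox against DHT, vertical). Purple points are the 35 genes whose difference was called, and the dotted line marks equal changes. CLDN1 lies at -0.10 and -0.87 and EPAS1 at -1.37 and -2.09.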

How the data were processed

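Single-colour bead arrays were read for 12 cultures in 4 groups of 3, assigned from the treatment in the labels. The deposited values are intensities on a linear scale. The submitters' processing notes name GenomeStudio, without a version. How normalization and background were handled is not given in the sources used here. The deposited columns shared their quantiles to within 0.8 units, so no normalization was added. Deposited intensities were taken to log2. A floor of 20 was set and 0 values lay below it, so none was altered. Of 47230 probes, 30113 had a single gene symbol, 8 had several and 17109 had none in the platform's gene table. Of those with a single symbol, 30074 took their symbol from RefSeq, whether or not it changed. A gene was read by its brightest named probe. Among genes with several probes above background, 15 had probes called in opposite directions.

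A linear model with 4 group means was fitted over all 12 arrays with limma 3.58.1 (lmFit, eBayes with trend) in R 4.3.3, and two-sided p-values were adjusted by Benjamini-Hochberg over 12122 genes. Tables were made with pandas 2.3.3 and numpy 2.4.6 under Python 3.11.15, and plots with matplotlib 3.10.9. The fit was tested on simulated data.

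A gene above background on no array of a group has a fold against the higher of the limit and its own value, as "at least". Named were the 12 largest rises and 12 largest falls with groups that do not overlap, up to 3 of each per list, the androgen and RUNX2 checks, the 6 largest differences each way, the 5 largest bounds each way, and list members that were not called, given as values. The members and the 50 function and 6 marker lists were chosen with earlier results of these data known. No label gives a slide or hybridisation batch. Probes without a gene name were not used.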

Additional observations from a re-analysis of the deposited data

Results flagged for a closer look

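The dox change with DHT differed from that without DHT by the test of the difference itself for each gene given here, as the change with DHT minus the change without it on the log2 scale. It was more negative with DHT for CLDN1 (-0.77), UPK3A (-0.75), EPAS1 (-0.72), CXCR4 (-0.71), PLEKHS1 (-0.69), VTCN1 (-0.68), LINC00930 (-0.65), EFHD1 (-0.57) and ALDH1A3 (-0.56). UPK3A and LINC00930 were above background on 0 DHT with dox arrays, so their change with DHT is a bound (at least 1.61-fold and 2.26-fold lower) and their differences were measured against signal at background. It was more positive with DHT for ACKR3 (0.46), ZMAT3 (0.76), YRDC (0.80), DUSP19 (0.83), CEP19 (0.84), BMS1P1 (0.89) and RNA28SN5 (1.15). The limma adjusted p ranged from 0.0124 for CLDN1 to 0.0473 for ZMAT3.

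The difference was not called under 11 of 21 alternatives for LINC00930, ALDH1A3 and ACKR3, under 10 for EFHD1, 7 for PLEKHS1 and YRDC, 3 for VTCN1, 2 for BMS1P1, 1 for CLDN1, UPK3A and CEP19, 15 for ZMAT3 and 13 for RNA28SN5. ACKR3 fell with DHT (-0.77) and fell further without it (-1.23).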

How the results depend on the processing

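Without each array in turn, 1475 to 1749 genes were called higher, 1936 to 2323 lower, 735 to 777 with at least 1.5-fold, and 9 to 52 for the difference of the dox changes with and without DHT. That difference gave 17 genes without vehicle replicate 2, 16 without dox replicate 1, 9 without dox replicate 3, 16 without DHT replicate 1, 14 without DHT replicate 2, 21 without DHT with dox replicate 2 and 18 without DHT with dox replicate 3, so its count depends on single arrays. With background subtracted, 1798 genes changed at least 1.5-fold and 18 differed. ZMAT3 reversed to -0.12 with the mean of its probes (limma adjusted p = 0.156), where its other probes fell. Of 251 called genes that the rule for named genes picks, 34 lost their call under at least 1 alternative. The replicate block gave 1706 higher, 2269 lower, 746 with at least 1.5-fold and 50 differences. Deviations of same-numbered arrays correlated at 0.03, 0.023 and -0.014, and those of differently numbered arrays at -0.055 to 0.03. No effect shared by replicate number was seen, which cannot show whether the cultures were run in matched sets. Signal near background limits dim genes.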
